A study of Mus musculus with 16 samples.

Results

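The hypoxia response genes described here are 10 genes of the cell's reaction to low oxygen, chosen by name: Hif1a, Epas1, Egln1, Egln3, Vegfa, Adm, Slc2a1, Ndrg1, Ankrd37 and Bnip3. Their symbols were matched to gene identifiers, and all 10 were found among the 30325 genes of the gonadal table and the 30946 genes of the subcutaneous table. All 10 passed the filter on low values in both depots. The samples were gonadal and subcutaneous fat of female mice on the C57BL/6J background, all Lcn2-null through the allele Lcn2tm1Aade (strain B6.129P2-Lcn2tm1Aade/AkiJ). Lcn2 encodes lipocalin-2, a secreted protein that binds iron carriers. Intravenous AAV8 carrying LCN2 or, as the control, GFP was given at an age of 8 weeks, and an HF/HS diet was fed until tissue was taken at 16 weeks. Both vectors used the adiponectin promoter, which is active in fat cells, and a target sequence of microRNA122 that lowers expression in liver, so every control mouse also lacked Lcn2 and carried a vector. Each depot had 4 LCN2 and 4 GFP samples.

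Cells sense oxygen through hypoxia-inducible factors, pairs of an oxygen-regulated alpha subunit and a constant beta subunit. When oxygen is plentiful, prolyl hydroxylases mark the alpha subunit, the von Hippel-Lindau protein binds the mark, and the subunit is degraded. When oxygen falls, the alpha subunit accumulates and switches on genes of glucose uptake, vessel growth and mitochondrial turnover. In obese fat, where enlarged cells can outgrow their blood supply, this response has been linked to fibrosis and inflammation. Because the alpha subunits are set largely by protein stability, RNA levels of Hif1a and Epas1 do not measure the activity of the factors.

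The factors bind a short core sequence, A or G followed by CGTG. RefSeq promoter windows of GRCm38.p6, from 250 bases before to 50 bases after the transcription start, matched 8 of the 10 genes, all but Epas1 and Ndrg1. The letters ACGTG and GCGTG were searched on both strands, and at the first start listed for each gene 7 of the 8 held at least 1 match. The share among 27025 promoters of the same length was 43.8%. Vegfa had no match at its first listed start and 2 at a second one. Printed here are Hif1a, the member that differed most clearly between the vectors, and Bnip3 and Ankrd37, which held the most matches. None of these genes passed the test over all genes (limma). Matches are in capitals, and matches that overlap run together, as in CACGTG, which reads ACGTG on both strands.
Hif1a chr12:73907617-73907916 (plus strand): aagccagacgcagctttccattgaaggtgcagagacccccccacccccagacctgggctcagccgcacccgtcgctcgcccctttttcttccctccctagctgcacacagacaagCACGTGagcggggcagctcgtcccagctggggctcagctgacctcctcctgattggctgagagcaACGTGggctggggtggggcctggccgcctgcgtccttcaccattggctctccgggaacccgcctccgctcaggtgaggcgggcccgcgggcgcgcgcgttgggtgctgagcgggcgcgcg
Bnip3 chr7:138909457-138909756 (minus strand): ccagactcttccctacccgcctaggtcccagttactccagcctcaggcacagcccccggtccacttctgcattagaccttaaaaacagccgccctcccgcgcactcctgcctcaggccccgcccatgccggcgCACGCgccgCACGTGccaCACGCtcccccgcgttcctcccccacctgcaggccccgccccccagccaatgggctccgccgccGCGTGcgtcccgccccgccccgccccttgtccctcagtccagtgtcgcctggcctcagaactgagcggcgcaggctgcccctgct
Ankrd37 chr8:45999801-46000100 (minus strand): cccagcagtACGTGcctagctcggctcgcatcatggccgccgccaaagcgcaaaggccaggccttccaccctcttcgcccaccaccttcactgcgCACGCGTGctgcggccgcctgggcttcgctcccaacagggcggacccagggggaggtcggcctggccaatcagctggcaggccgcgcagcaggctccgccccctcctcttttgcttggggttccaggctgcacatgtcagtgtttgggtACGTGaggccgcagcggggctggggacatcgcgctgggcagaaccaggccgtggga
Hif1a held 2 separate places with a match, Bnip3 4 and Ankrd37 3. A match describes the letters and does not show that a factor binds there. The printed windows of Hif1a and Ankrd37 lie well inside the gene spans given below, so other starts of these genes were not searched here.

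Gonadal values are the authors' normalized counts, reads per gene divided by a size factor for each sample, and libraries held between 35173260 and 42890102 reads. Subcutaneous values are rlog, a log2 scale on which low genes are drawn towards their mean, and the depth of these libraries is unknown. Lcn2 itself was at 186 to 522 normalized counts with the LCN2 vector, against 62.1 to 103 with GFP, in gonadal fat, and at an rlog of 8.49 to 9.82 against 7.76 to 8.37 in subcutaneous fat. Some libraries held transcripts of other tissues. In gonadal fat the summed level of 8 hepatocyte genes was 516 and 1273 CPM (reads scaled to a fixed library total) in LCN2 replicates 1 and 2 and 436 CPM in GFP replicate 1, and 51.9 to 129 CPM in the other 5 samples. With Cyp2e1 and Trf, which fat cells also express, the whole list of 10 summed to 903 to 2758 CPM with LCN2 and 1579 to 5290.5 CPM with GFP. Skeletal muscle markers summed to 1503 CPM in LCN2 replicate 4 and to 64.7 to 210 CPM in the others. The mean rlog in subcutaneous fat of 10 lymphocyte and lymph node markers was 10.23 and 9.45 in GFP replicates 1 and 2, 7.95 in LCN2 replicate 4, and 5.77 to 6.13 in the other 5. The same GFP replicates 1 and 2 were the highest in the 8 hepatocyte genes there, with a mean rlog of 7.44 and 9.11, against 6.12 to 6.85 in the other 6 samples. Fat cell markers were abundant throughout, summing to 20120 to 27360 CPM with LCN2 and 22286 to 34109 CPM with GFP in gonadal fat. Mesothelial markers, of the layer that covers visceral fat, had 10 of 10 lower differences with LCN2 in gonadal fat, with a median of -1.23, and summed to 118 to 248 CPM with LCN2, against 219 to 524 CPM with GFP. Differences were positive for 2 of 10 adipocyte, 9 of 9 muscle, 8 of 10 hepatocyte, 3 of 10 lymphoid and 7 of 7 erythroid genes in gonadal fat. The counts in subcutaneous fat were 6 of 10, 3 of 9, 1 of 10, 0 of 10 and 6 of 6, with 3 of 8 for mesothelium. None of these markers passed (limma), and their part in the results was not tested.

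The 10 genes spanned a wide range of levels. In CPM per kilobase of exon in gonadal fat, Bnip3 was the highest member with 148 to 260.1 over the 8 samples, followed by Epas1 with 102 to 156. Vegfa had 53.4 to 102, Egln1 20.1 to 23.5, Hif1a 10.9 to 17.5 and Ndrg1 6.92 to 22.5. Adm had 3.23 to 5.09, Egln3 2.00 to 3.80, Slc2a1 2.51 to 3.21 and Ankrd37 0.068 to 0.320. The ranges of neighbours overlapped for Bnip3 and Epas1, Epas1 and Vegfa, Egln1 and Ndrg1, Hif1a and Ndrg1, Adm and Egln3, and Egln3 and Slc2a1. Egln1 stood apart from Vegfa and Hif1a, and Ankrd37 stood apart below every other member. In subcutaneous fat the order by the median rlog less log2 of exonic kilobases was the same from Bnip3, at 12.62, to Adm, at 7.30. Slc2a1, at 7.15, then came before Egln3, at 6.80, with overlapping ranges, and Ankrd37 was again last at 3.14.

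**Figure D1:**
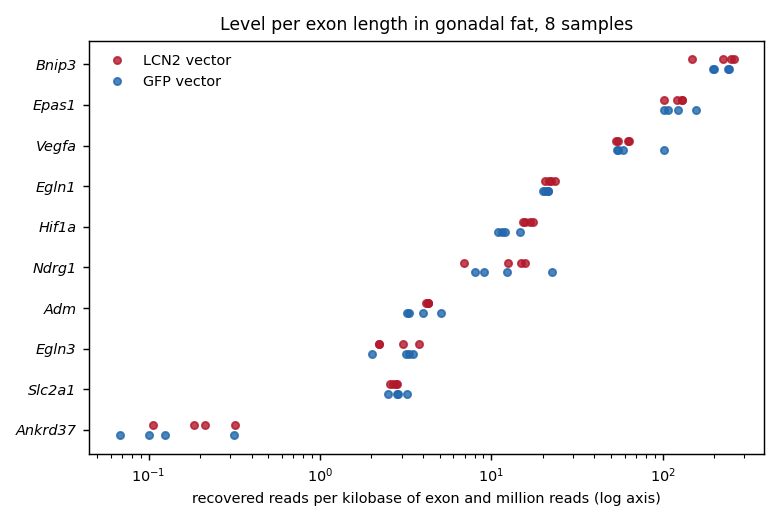
Level of each hypoxia response gene in gonadal fat, as CPM per kilobase of exon on a log axis, 1 point per sample, with the LCN2 vector above the GFP vector in each row. Bnip3 lies between 148 and 260.1 and Ankrd37 between 0.068 and 0.320, and only for Hif1a do the 2 colours separate.

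In each depot every LCN2 sample exceeded every GFP sample in Hif1a RNA, with a fold of 1.34 in gonadal fat and 1.20 on the compressed rlog scale in subcutaneous fat. The other 9 members overlapped between the vectors in both depots. No member passed the test over all genes in either depot, so none of these differences is a call. Over all genes tested, groups did not overlap, in either direction, for 9.11% in gonadal and 7.08% in subcutaneous fat. All LCN2 samples lay above all GFP samples in both depots for 0.843% of the genes tested in both. The intervals of the target genes Vegfa, Adm, Slc2a1, Ndrg1, Ankrd37 and Bnip3 included 0 in both depots.

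Hif1a (ENSMUSG00000021109, chromosome 12, 73901375 to 73947530, plus strand, GRCm38) encodes the alpha subunit of hypoxia-inducible factor 1. In gonadal fat its normalized count was 3447, 3412, 4104 and 3619 in LCN2 replicates 1 to 4, against 2462.5, 2691, 2859 and 2833 in GFP replicates 1 to 4. The lowest LCN2 sample stood well above the highest GFP sample on this scale. Scaled to library totals the gap was narrow, with 15.3 CPM per kilobase in LCN2 replicate 1 against 14.8 in GFP replicate 4. The means of the normalized counts were 3645 ± 319 with LCN2 and 2712 ± 182 with GFP (SD, n = 4 each). The log2 difference was 0.43 ± 0.09 (SE), a fold of 1.34 with a 95% interval of 1.17 to 1.54. The adjusted p by limma was 0.127 and the unadjusted p 0.000974, which ranked 150 among 19536 genes. DESeq2 on the recovered reads, which called 4.29% of all genes it tested, called it (adjusted p = 0.00132), while edgeR did not (adjusted p = 0.165). Hif1a shares 2.51% of its exonic bases with Gm49321 on the same strand and 5.60% with Gm15283 on the opposite strand.

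In subcutaneous fat the rlog of Hif1a was 11.74, 11.52, 11.81 and 11.58 in the LCN2 samples, against 11.37, 11.45, 11.38 and 11.38 in the GFP samples. The groups again did not overlap, and the GFP samples lay within a narrow band. The difference was 0.27 ± 0.07 (SE, limma, adjusted p = 0.308, unadjusted p = 0.00494), with a 95% interval of 0.11 to 0.43. Of the genes tested, 4.40% in gonadal and 3.81% in subcutaneous fat had all LCN2 samples above all GFP samples. The share that did so in both depots was 0.843% of 19109 genes, 161 in all. The labels do not tie the samples of a depot to those of the other by animal.

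The Hif1a difference was also taken without libraries that held transcripts of other tissues. It was 0.42 without LCN2 replicate 4, which held the most muscle transcripts, and GFP replicate 2. Without the 3 libraries high in hepatocyte genes it was 0.46. Muscle markers of GFP replicate 2 summed to only 115 CPM. Its Myh4, Ckm, Tnnt3 and Actn3, at 812, 161, 186 and 196 normalized counts, were second only to LCN2 replicate 4, unlike its Acta1, Mb and Myl1. In subcutaneous fat the Hif1a difference was 0.28 without GFP replicates 1 and 2, with LCN2 replicate 4, the next highest in lymphoid markers, kept in. Left out 1 at a time, samples moved it between 0.37 and 0.46 in gonadal and between 0.22 and 0.31 in subcutaneous fat. In whole tissue, more cells of a type that holds the RNA and more RNA per cell cannot be told apart. Macrophage markers, from cells known to express Hif1a, summed to 516 to 831 CPM with LCN2, against 558 to 935 CPM with GFP, in gonadal fat, with 5 of 10 markers higher. In subcutaneous fat 8 of 10 macrophage markers were higher with LCN2, and their mean rlog ranges overlapped, with 9.94 to 10.43 against 9.91 to 10.21. Endothelial markers were higher with LCN2 for 12 of 12 genes in each depot, with medians of 0.40 and 0.38. The part of either cell type in the Hif1a difference was not tested.

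Epas1 (ENSMUSG00000024140, chromosome 17, 86753700 to 86833410, plus strand) encodes the sister subunit HIF-2 alpha, abundant in endothelium and fat cells. Its normalized count in gonadal fat was 27485, 24957, 22677 and 26518 with LCN2, against 26445, 23759, 23098 and 28327 with GFP. The values interleaved, and the fold was 1.00 with a 95% interval of 0.83 to 1.21. Per length the Epas1 level was above that of Hif1a in every sample. In subcutaneous fat Epas1 had an rlog of 14.40, 14.37, 14.28 and 14.48 with LCN2, against 14.07, 14.07, 14.07 and 14.58 with GFP. Here 3 of the 4 GFP samples lay below all LCN2 samples and GFP replicate 4 lay above them. The difference was 0.18 ± 0.12 (SE, limma, adjusted p = 0.504), and 0.31 without GFP replicate 4.

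No difference was detected for the prolyl hydroxylase genes. Egln1 (ENSMUSG00000031987, chromosome 8, 124908587 to 124949324, minus strand) encodes the main oxygen sensor that marks the alpha subunits, and Egln3 (ENSMUSG00000035105, chromosome 12, 54178981 to 54203860, minus strand) a related enzyme that is itself induced by the factors. In gonadal fat Egln1 had 3047, 2718, 3134 and 3095 normalized counts with LCN2, against 2848, 3023, 3119 and 2346 with GFP. Egln3 had 311, 219, 404 and 216 with LCN2, against 324, 346, 378 and 173 with GFP. Both genes overlapped between the vectors. The fold was 1.06 for Egln1, with an interval of 0.903 to 1.25, and 0.948 for Egln3, with a wide interval of 0.606 to 1.48. In subcutaneous fat Egln1 differed by 0.01 ± 0.07 and Egln3 by -0.22 ± 0.13 on the rlog scale (SE, limma, adjusted p = 0.954 and 0.458). The rlog of Egln3 was 8.23, 8.23, 8.13 and 7.90 with LCN2, against 8.10, 8.19, 8.56 and 8.52 with GFP.

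**Figure D2:**
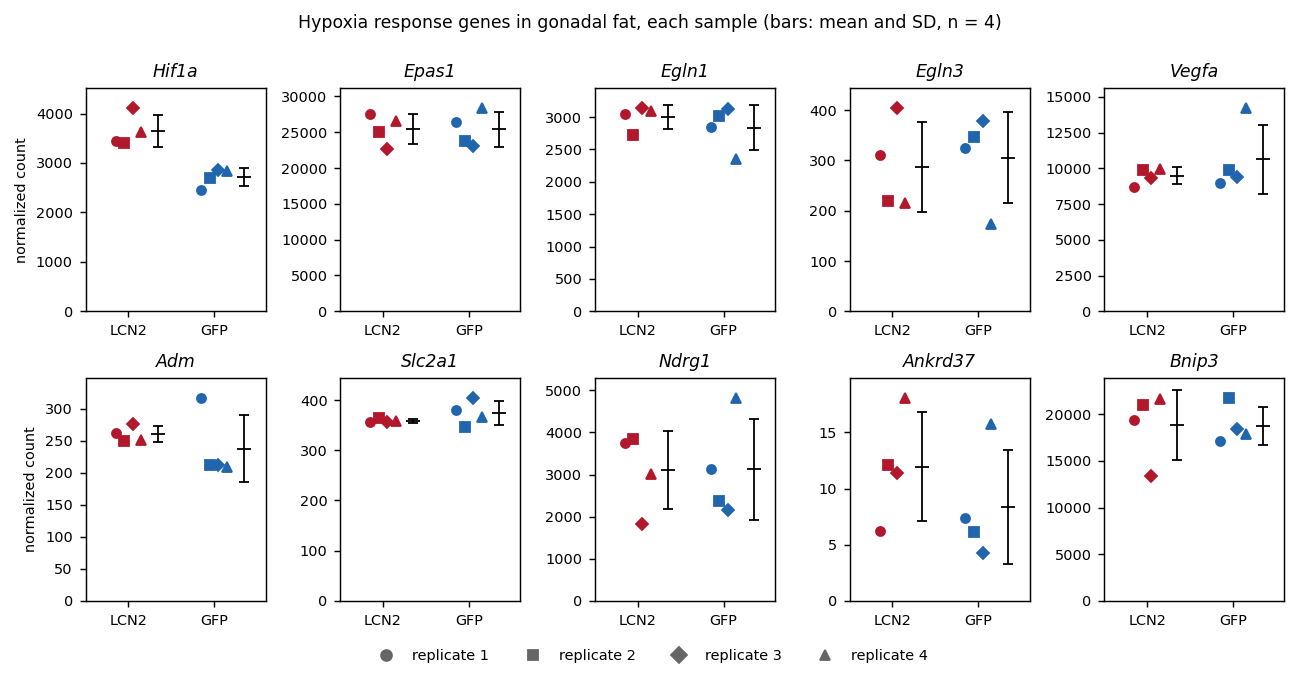
Normalized count of each hypoxia response gene in the 4 LCN2 and 4 GFP samples of gonadal fat, with the mean and SD beside each group and a symbol for each replicate number. For Hif1a all LCN2 points, from 3412 to 4104, lie above all GFP points, from 2462.5 to 2859, and the other 9 genes overlap.

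Of the secreted products, Vegfa (ENSMUSG00000023951, chromosome 17, 46016993 to 46032369, minus strand) encodes the main growth factor of blood vessels, and Adm (ENSMUSG00000030790, chromosome 7, 110627661 to 110629820, plus strand) the vessel-widening peptide adrenomedullin. Vegfa had 8718, 9893, 9356 and 9989.6 normalized counts in gonadal LCN2 samples, against 8992, 9922, 9411 and 14203 in GFP samples. All but GFP replicate 4 lay in one narrow band, and the fold was 0.907 with an interval of 0.719 to 1.14. The subcutaneous rlog of Vegfa was 12.87, 13.13, 13.02 and 13.08 with LCN2, against 12.73, 12.96, 12.92 and 13.46 with GFP. GFP replicate 4 was again the highest sample. The difference was 0.01 ± 0.15 (SE), with an interval of -0.33 to 0.35.

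Adm had 262, 249, 277 and 252 normalized counts with LCN2 in gonadal fat, against 317, 213, 212 and 209 with GFP. GFP replicate 1 alone stood above the LCN2 samples, and the other 3 GFP samples below them. The log2 difference was 0.15 ± 0.15 (SE), and 0.30 (limma, adjusted p = 0.261) without GFP replicate 1. The subcutaneous rlog of Adm was 8.50, 7.90, 7.99 and 8.23 with LCN2, against 7.92, 7.82, 8.01 and 8.02 with GFP. The groups overlapped, with a difference of 0.22 ± 0.13 (SE, limma, adjusted p = 0.463). The genes of the adrenomedullin receptor in the wider lists were Calcrl, the receptor itself, at 0.10 in gonadal and -0.02 in subcutaneous fat, and its partner Ramp2, at 0.43 in each. Ramp2 shares 33.4% of its exonic bases with Vps25 on the same strand. The other partner, Ramp3, was under the gonadal filter and had -0.13 in subcutaneous fat.

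Slc2a1 (ENSMUSG00000028645, chromosome 4, 119108711 to 119137983, plus strand) encodes GLUT1, the glucose transporter that works without insulin. Its normalized count in gonadal fat was 356, 364, 357 and 358 with LCN2, against 381, 347, 404 and 365 with GFP. The LCN2 samples agreed closely and lay inside the GFP range. The fold was 0.960 with an interval of 0.843 to 1.09. Its rlog in subcutaneous fat was 8.94, 8.77, 8.84 and 8.98 with LCN2, against 9.15, 9.14, 8.88 and 8.98 with GFP, a difference of -0.15 ± 0.08 (SE, limma, adjusted p = 0.424). The 2 high GFP values belong to the libraries high in lymphoid and hepatocyte markers, GFP replicates 1 and 2. Without these highest values the difference was -0.04, and why they were high was not tested.

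Ndrg1 (ENSMUSG00000005125, chromosome 15, 66929318 to 66969640, minus strand) encodes a stress-responsive protein that is a classical marker of hypoxia. It was the most variable member among those with many reads. In gonadal fat it had 3753, 3845, 1821 and 3006 normalized counts with LCN2, against 3132, 2370.5, 2162 and 4817 with GFP. Neither vector held the high or the low samples, and the log2 difference was 0.01 ± 0.30 (SE), with a fold interval of 0.626 to 1.61. Its subcutaneous rlog was 11.97, 12.06, 11.22 and 11.54 with LCN2, against 11.13, 11.10, 11.23 and 11.70 with GFP. The means differed by 0.41 ± 0.21 (SE, limma, adjusted p = 0.403), the largest difference of a member in that depot, and LCN2 replicate 3 and GFP replicate 4 crossed over. Without GFP replicate 4 it was 0.55, and without LCN2 replicate 3 it was 0.57. Ndrg1 shares 8.43% of its exonic bases with Gm17035 and Gm2895 on the opposite strand.

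Bnip3 (ENSMUSG00000078566, chromosome 7, 138890836 to 138909519, minus strand) encodes a protein of the outer mitochondrial membrane that starts the removal of mitochondria. Its normalized count in gonadal fat was 19345, 20939, 13365 and 21568 with LCN2, against 17108, 21720.0, 18399.7 and 17822 with GFP. LCN2 replicate 3 was the lowest of the 8 and the other 3 LCN2 samples were among the 4 highest. The fold was 0.989 with an interval of 0.761 to 1.29. Its subcutaneous rlog was 13.75, 14.10, 13.70 and 13.94 with LCN2, against 13.47, 13.73, 13.84 and 13.95 with GFP, a difference of 0.12 ± 0.13 (SE). Bnip3 shares 22.3% of its exonic bases with Gm45507 on the opposite strand, and the strand setting of the counting is not given in the sources used here.

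Ankrd37 (ENSMUSG00000050914, chromosome 8, 45996902 to 46005707, minus strand) encodes a small ankyrin repeat protein that is a target of HIF-1. It was close to the limit of measurement, with 4 to 19 recovered reads per gonadal sample. Its normalized count was 6.22, 12.1, 11.3 and 18.1 with LCN2, against 7.39, 6.10, 4.24 and 15.7 with GFP. The groups overlapped, and the fold of 1.44 had an interval of 0.706 to 2.92, the widest of the members. The rlog in subcutaneous fat was 3.83, 3.68, 3.76 and 3.76 with LCN2, against 4.22, 4.00, 3.69 and 3.59 with GFP, and the difference was -0.12 ± 0.13 (SE). Ankrd37 shares 26.4% of its exonic bases with Ufsp2 and Lrp2bp on the opposite strand.

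**Figure D3:**
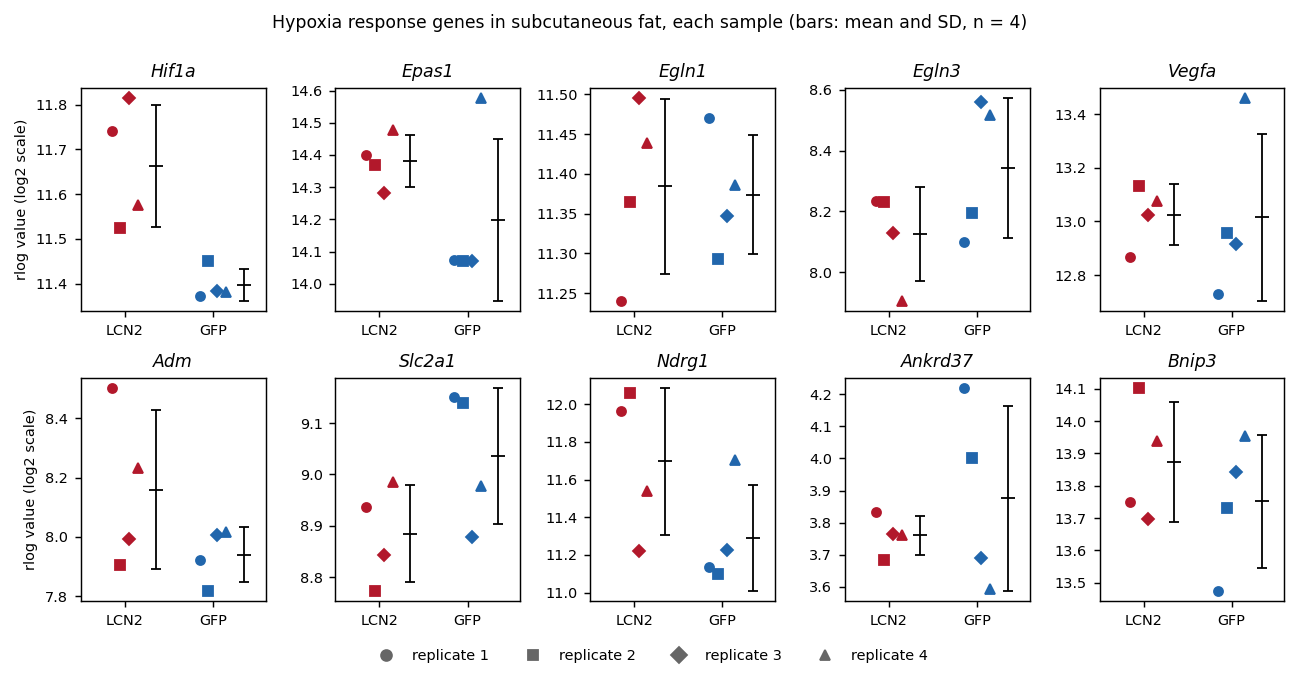
The rlog value of each hypoxia response gene in the 4 LCN2 and 4 GFP samples of subcutaneous fat, with the mean and SD beside each group. Axes do not start at 0 because rlog is a log2 scale, and Hif1a separates the vectors, with 11.52 to 11.81 against 11.37 to 11.45.

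As a group, the members had differences centred near 0 in both depots. In gonadal fat 6 of 10 were higher with LCN2, with a median log2 difference of 0.00, beside 52.0% and a median of 0.01 over all 19536 genes. In subcutaneous fat 7 of 10 were higher, with a median of 0.07, beside 49.8% and a median of -0.00 over all 20302 genes. By limma 0 of 10 members passed in gonadal fat, where 0.102% of all genes did (0.0410% in the higher direction), and 0 of 10 in subcutaneous fat, where the share was 0%. At an unadjusted p under 0.05 there was 1 member in each depot, Hif1a, beside 14.8% of gonadal and 14.0% of subcutaneous genes. That is 10% of the members and no more than the share of all genes. On recovered gonadal reads edgeR called 0 members, beside 0.0358% of all genes (7 of 19536). DESeq2 called 1, again Hif1a, beside 4.29% of the genes it gave an adjusted p (818 of 19067). Groups did not overlap for 1 of 10 members, beside 9.11% of all gonadal and 7.08% of all subcutaneous genes. No member had all LCN2 samples below all GFP samples, beside 4.71% of gonadal and 3.27% of subcutaneous genes.

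**Figure D4:**
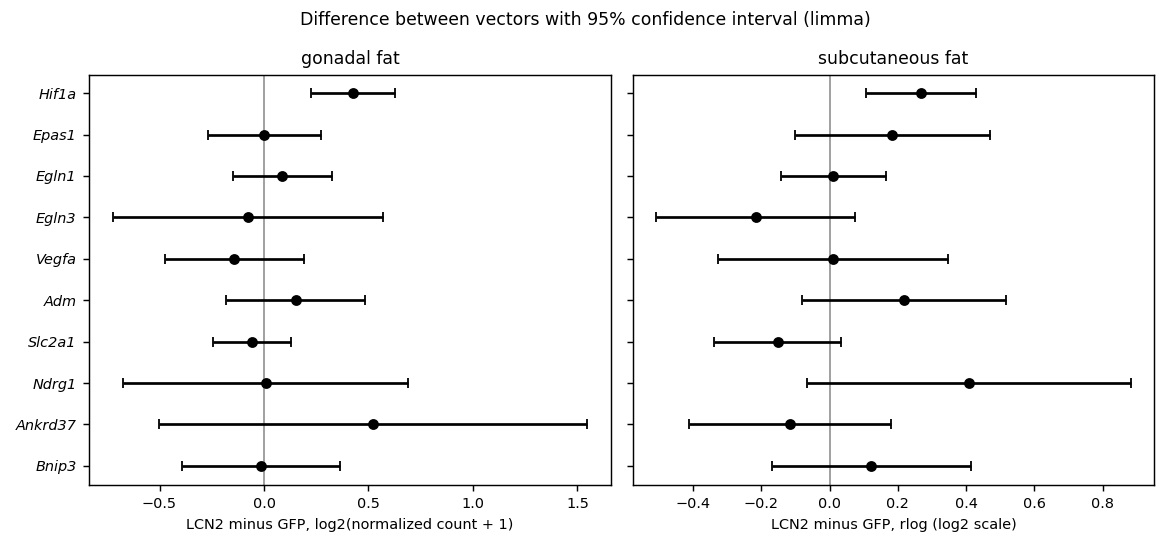
Difference between the LCN2 and GFP vectors for each hypoxia response gene with its 95% confidence interval by limma, in log2(normalized count + 1) for gonadal fat and rlog units for subcutaneous fat. The interval lies above 0 for Hif1a in both depots, at 0.23 to 0.63 and 0.11 to 0.43, and includes 0 for the other 9 genes.

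GFP replicate 4 was the highest GFP sample for 4 of the 10 members in gonadal fat and for 5 in subcutaneous fat, with Epas1, Vegfa and Ndrg1 among them in both depots, a pattern picked after the values were seen. GFP replicate 3 was highest as often in gonadal fat, for 4 members, and for 1 in subcutaneous fat. GFP replicate 4 was also the GFP sample with the highest endothelial markers in each depot. Their summed level was 1245 to 1508 CPM with LCN2, against 1214, 632, 851 and 1609.8 CPM in GFP replicates 1 to 4, in gonadal fat. In subcutaneous fat their mean rlog was 11.07 to 11.31 with LCN2, against 10.71, 10.48, 10.69 and 11.19 with GFP. Whether this moves Epas1 or Vegfa was not tested.

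The wider pathway was described with 86 other genes in 6 lists, of which 83 were tested in gonadal and 85 in subcutaneous fat. Only 1 gene passed in gonadal fat and none in subcutaneous fat (limma), beside 0.102% and 0% of all genes tested. At an unadjusted p under 0.05 there were 15 gonadal genes, 11 higher and 4 lower, and 19 subcutaneous genes, 16 higher and 3 lower. These are 18.1% and 22.4% of those tested, beside 14.8% and 14.0% of all genes. The gene that passed was Car12, a membrane-bound carbonic anhydrase that acidifies the outside of the cell. Its normalized count was 112, 108, 99.8 and 151 with LCN2, against 26.4, 17.3, 13.8 and 13.3 with GFP, a log2 difference of 2.70 ± 0.25 (SE, limma, adjusted p = 0.0201). Every LCN2 sample held more than 3 times the highest GFP value. The call was lost without LCN2 replicate 3 or 4 or GFP replicate 2 or 3 (adjusted p = 0.0940, 0.0579, 0.118 and 0.0561), with the difference between 2.58 and 2.77. It was also lost without the muscle or the hepatocyte libraries (limma, adjusted p = 0.192 and 0.321). In subcutaneous fat Car12 had an rlog of 6.36, 6.17, 6.50 and 6.20 with LCN2, against 5.92, 6.16, 5.68 and 5.96 with GFP, a difference of 0.38 ± 0.12 (SE, limma, adjusted p = 0.308). The lowest LCN2 sample was just above the highest GFP sample. Its relative Car9, a classical hypoxia target, had a gonadal difference of -0.52 ± 0.23 and a subcutaneous one of 0.05 ± 0.06 (SE, limma, adjusted p = 0.338 and 0.723).

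Among the partners and regulators of the alpha subunits, 3 of 11 were higher with LCN2 in each depot, with a median of -0.07 in each. Vhl, the gene of the von Hippel-Lindau protein that has the alpha subunits degraded, had 1784, 2355, 1461 and 1563 normalized counts in gonadal LCN2 samples, against 862, 964, 808 and 1333 in GFP samples. In subcutaneous fat its rlog was 9.98, 10.43, 10.29 and 10.03 with LCN2, against 9.92, 9.89, 9.76 and 9.90 with GFP. Like Hif1a, Vhl thus had all LCN2 samples above all GFP samples in both depots, as did 0.843% of the genes tested in both. The differences were 0.85 ± 0.19 and 0.31 ± 0.10 (SE, limma, adjusted p = 0.151 and 0.308), and DESeq2 on gonadal reads gave an adjusted p of 0.00615. Without the 3 libraries high in hepatocyte genes the gonadal difference of Vhl was 0.58. Cited2, which competes with the alpha subunits for a coactivator and restrains them, had 1249, 1706, 735 and 1691 normalized counts in gonadal LCN2 samples, against 2480.4, 2853, 1866 and 2479 in GFP samples. The groups were apart in gonadal fat, at -0.91 ± 0.26, and overlapped in subcutaneous fat, at -0.34 ± 0.15 (SE, limma, adjusted p = 0.190 and 0.349). The beta subunit gene Arnt had -0.12 and 0.05.

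Genes of glycolysis and lactate, the best known metabolic targets of HIF-1, had no common direction across depots. In gonadal fat 16 of 21 were higher with LCN2, with a median of 0.15, and in subcutaneous fat 10 of 22, with a median of -0.04. The canonical targets Pgk1 and Ldha had gonadal differences of 0.24 and 0.14 and subcutaneous ones of -0.08 and 0.02. Pfkfb3, which makes the activator of phosphofructokinase, had 47679, 39058, 53527 and 46779 normalized counts in gonadal LCN2 samples, against 25457, 26986, 43111 and 34130.3 in GFP samples. Only GFP replicate 3 overlapped with the LCN2 range. Its difference was 0.55 ± 0.19 there and 0.56 ± 0.15 in subcutaneous fat, where all LCN2 samples lay above all GFP samples (SE, limma, adjusted p = 0.240 and 0.308). Pdk1, a kinase that restrains the use of pyruvate in mitochondria, had -0.29 ± 0.24 and -0.44 ± 0.15 (SE, limma, adjusted p = 0.620 and 0.313). The neuronal-type glucose transporter Slc2a3 had -1.17 ± 0.39 and -0.39 ± 0.33 (SE, limma, adjusted p = 0.226 and 0.588).

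Genes of vessel growth and tone had positive differences in 13 of 15 in gonadal fat, with a median of 0.31, and in 14 of 16 in subcutaneous fat, with a median of 0.32. None passed. Apln, the vessel ligand apelin, had 270.2, 517, 461 and 345 normalized counts in gonadal LCN2 samples, against 238, 91.6, 151 and 397 in GFP samples, a difference of 1.02 ± 0.42, and one of 0.81 ± 0.24 in subcutaneous fat (SE, limma, adjusted p = 0.301 and 0.308). GFP replicate 4 reached the LCN2 range in both depots. Nos3, the endothelial nitric oxide synthase gene, had 0.73 ± 0.21 and 0.36 ± 0.16 (adjusted p = 0.191 and 0.362), and overlaps Gm15587 and Atg9b on the opposite strand over 32.3% of its exons. Endothelial marker differences were positive too, with 12 of 12 higher with LCN2 in each depot and medians of 0.40 and 0.38, and their part in these values was not tested.

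The remaining lists were mixed. Of mitophagy, respiration and survival genes 5 of 10 were higher in gonadal and 6 of 10 in subcutaneous fat, with medians of -0.00 and 0.05. Bnip3l, the sister gene of Bnip3, had -0.11 and 0.02. Ndufa4l2, which lowers complex I activity in hypoxia, had 267, 343, 324 and 309 normalized counts in gonadal LCN2 samples, against 223, 131, 165 and 239.5 in GFP samples, and differences of 0.74 ± 0.19 and 0.61 ± 0.19 (SE, limma, adjusted p = 0.174 and 0.308). Ddit4, an inhibitor of mTOR signalling, had 0.90 ± 0.37 and 0.30 ± 0.27, and Pmaip1, which promotes cell death, had -0.01 ± 0.26 and -0.54 ± 0.30. Pmaip1 was highest in subcutaneous GFP replicates 1 and 2, with an rlog of 7.58 and 6.89 against at most 6.38 in the others. Without those libraries its difference was 0.0052, and why they were high was not tested.

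Of hydroxylase, demethylase and matrix genes 7 of 11 were higher in gonadal and 8 of 11 in subcutaneous fat, with medians of 0.04 and 0.13. The collagen-modifying enzymes included Plod1 at 0.25 ± 0.07 and 0.33 ± 0.11, Plod2 at 0.53 ± 0.23 and 0.66 ± 0.35, and Lox, which cross-links collagen, at 0.83 ± 0.39 and 0.70 ± 0.25 (SE, limma, adjusted p between 0.190 and 0.417). The histone demethylase target Kdm3a had -0.07 and -0.09. Among other classical targets 9 of 15 were higher in gonadal and 11 of 15 in subcutaneous fat, with medians of 0.08 and 0.10, and Epo was in neither table. At an unadjusted p under 0.05 (limma) there were 3 and 5 of them, 1 lower in each depot, beside 14.8% and 14.0% of all genes. Groups did not overlap for 13.3% and 33.3% of the list, beside 9.11% and 7.08% of all genes. Ndrg2, a relative of Ndrg1, had 0.08 ± 0.20 and 0.30 ± 0.06 (SE). Mif, a cytokine gene, had -0.35 ± 0.10 and -0.21 ± 0.06 (SE, limma, adjusted p = 0.186 and 0.308). Its LCN2 samples all lay below all GFP samples in both depots. Groups lay apart in that direction for 4.71% of gonadal and 3.27% of subcutaneous genes, and the share in both depots was not counted.

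**Figure D5:**
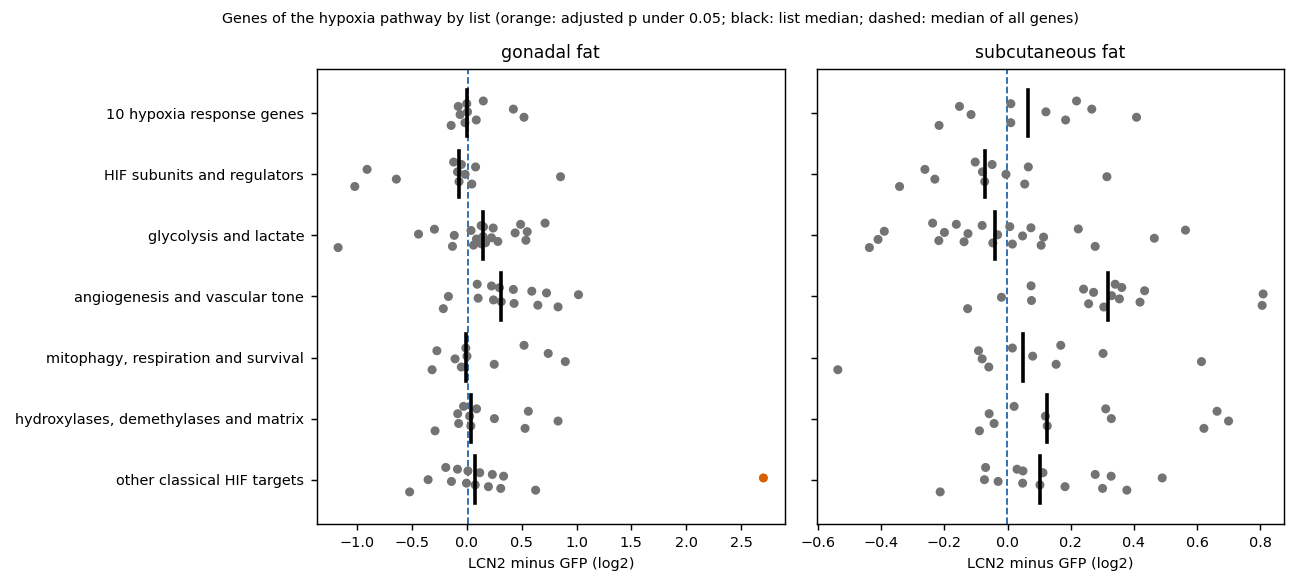
Difference between the LCN2 and GFP vectors for the 10 hypoxia response genes and for the other genes of the pathway by list, 1 point per gene, in gonadal and subcutaneous fat. Car12, at 2.70 in gonadal fat, is the only gene that passed, and the list of angiogenesis and vascular tone has medians of 0.31 in gonadal and 0.32 in subcutaneous fat, beside 0.01 and -0.00 for all genes.

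The genes whose profile over the 8 samples was most like the average of the members, by root mean square distance between z-scored values, were Srms, Sptan1, Snapc3, Ankrd23 and Inpp1 in gonadal fat, at distances of 0.193 to 0.300. In subcutaneous fat they were Efna1, Htr1d, Mast4, Chd5 and Tm4sf1, at 0.122 to 0.219. No gene was in both sets. Predicted genes, clone names and mitochondrial genes were passed over in naming the nearest genes, here and for Hif1a below. Chosen after its values were seen, Hif1a alone had Hist1h2ap, Nrbf2 and Noct as its nearest genes in gonadal fat, at distances of 0.193, 0.227 and 0.231, and Noct was among the genes that passed there (limma, adjusted p = 0.0325). Its nearest in subcutaneous fat were Bnc2, Mapkapk2 and Gpam, at 0.271, 0.300 and 0.330.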

How the data were processed

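RNA sequencing of 16 fat samples was analysed, 4 per vector and depot. Per the labels' protocols, frozen tissue gave the RNA and a stranded kit the mRNA libraries. The submitters' processing notes name HISAT2, DESeq2, GRCm38 and mm10. Tool versions, read counter, its strand setting and the gene models: not given in the sources used here.

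The gonadal table deposited by the authors holds a signal per gene, read counts divided by 1 size factor per sample. Dividing by the smallest value of each sample gave whole numbers for 100% of values within a tolerance of 1e-06, which are called recovered reads. In these libraries 3 reads equal 0.0699 to 0.0853 CPM, counting error only. The subcutaneous table deposited by the authors holds rlog values on a log2 scale.

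The depots were fitted separately (limma 3.58.1, R 4.3.3, trended prior variance) over all genes past a filter and with Benjamini-Hochberg adjustment at 0.05. Gonadal values were log2(normalized count + 1) for 19536 genes with a mean of at least 10, a scale on which changes of low genes are understated. Subcutaneous rlog values were used as deposited for 20302 genes averaging 3 or more. A positive difference means higher with LCN2. edgeR 4.0.16 and DESeq2 1.42.0 were run on recovered reads as alternatives. The gonadal limma, edgeR and DESeq2 fits were first checked on simulated counts of known fold change. The subcutaneous limma fit was checked on values drawn from a normal distribution around the rlog means. The other alternatives were not simulated. No pair of libraries was nearly identical: the mean chi-square per gene was at least 45.8 in gonadal fat, and the SD of the rlog difference at least 0.198.

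The 10 members, the pathway lists and the 8 marker lists were chosen with earlier results of these data known. All members are named, with up to 4 passing genes or else the 2 smallest p of each pathway list and depot. Car9, Calcrl, Ramp3, Arnt, Pgk1, Ldha, Bnip3l and Kdm3a were added for their roles after values were seen. Coordinates and exon lengths come from GENCODE M21 (GRCm38). Besides the group sizes, no label says that samples came from separate mice, so the p-values reflect only how far these samples scatter, which may be technical. Deviations of same-numbered samples had correlations of both signs in each depot, which cannot show whether samples were paired.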

Additional observations from a re-analysis of the deposited data

Results flagged for a closer look

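Of 40 groups of 4 values, 1 for each member, depot and vector, 3 held a sample far from the others, where chance gives about 1 in 20 groups. Adm in gonadal fat had 316.517 normalized counts in GFP replicate 1, against 209 to 213 in the other 3 GFP samples. Hif1a in subcutaneous fat had an rlog of 11.4513 in GFP replicate 2, against 11.37 to 11.38 in the other 3. Epas1 in subcutaneous fat had an rlog of 14.5762 in GFP replicate 4, against 14.07 in the other 3 GFP samples. No member had groups apart in opposite directions in the 2 depots.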

How the results depend on the processing

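No member passed under any alternative except Hif1a in gonadal fat with DESeq2, where the count was 1. Hif1a kept its direction in all 20 gonadal and 15 subcutaneous alternatives, between 0.37 and 0.46 and between 0.20 and 0.31, with adjusted p of 0.00132 to 0.525 and 0.103 to 0.905. Leaving out 1 replicate kept the members called at 0 in both depots and moved all gonadal genes called from 20 to between 1 and 66 (GFP replicate 4 left out gave 66, LCN2 replicate 3 gave 1, GFP replicates 2 and 3 gave 1 each, GFP replicate 1 gave 2, LCN2 replicate 4 gave 3) and gonadal pathway genes called from 1 to between 0 and 2. All gonadal genes called were 11 with a filter at 50, 6 scaled by library totals, 7 with edgeR, 818 with DESeq2, 71 with sample quality weights, and 0 with the replicate block or without the muscle or the hepatocyte libraries. Gonadal pathway genes called were 8 with DESeq2, 5 higher and 3 lower, beside 4.29% of all genes it gave an adjusted p. The count was 0 with the replicate block and without the muscle or the hepatocyte libraries. Car12 there had an adjusted p by limma of 0.128, 0.192 and 0.321. No subcutaneous gene was called under any alternative.

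Deviations of same-numbered samples correlated at 0.25, -0.36, 0.42 and 0.02 in gonadal and at -0.11, -0.33, 0.34 and -0.36 in subcutaneous fat. So few values of both signs cannot show whether samples were paired. With the replicate block, limma's adjusted p for Hif1a was 0.204 (gonadal). Gonadal LCN2 replicates 1 and 3 and subcutaneous LCN2 replicate 3 correlated best with the GFP sample of their own number, and the others did not.

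Members near 0 turned direction. Gonadal Epas1 was -0.010, -0.0021, -0.0068 and -0.0012 by library totals, TMM, edgeR and DESeq2, and -0.051 and -0.025 without the muscle and the hepatocyte libraries. Gonadal Egln3 was 0.12 and 0.061, and Ndrg1 -0.10 and -0.32, without those libraries. Ndrg1 was -0.0036, -0.021 and -0.0095 by totals, edgeR and DESeq2, and Bnip3 0.0031 by DESeq2 and 0.040 with quality weights. Without the lymph node libraries subcutaneous Vegfa was -0.16, Ankrd37 0.12, Bnip3 -0.026 and Pmaip1 0.0052. The cause was not tested. With 1 replicate left out, gonadal Epas1 ranged from -0.043 to 0.055, Egln1 from -0.00028 to 0.14, Egln3 from -0.33 to 0.046, Vegfa from -0.21 to 0.0063, Ndrg1 from -0.14 to 0.24 and Bnip3 from -0.090 to 0.14, and subcutaneous Egln1 from -0.026 to 0.059 and Vegfa from -0.085 to 0.16. Ankrd37, at 4 to 19 reads, is limited by depth, and subcutaneous depth is unknown.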
